A study of Homo sapiens with 17 samples.

Results

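The MYC, MAX and MXD network is a set of 10 transcription factor genes here: MYC, MYCN, MYCL, MAX, MXD1, MXD3, MXD4, MXI1, MNT and MLX. They were taken by name from the 20037 protein-coding genes of the annotation, and all 10 were found. The set was selected on the values described below (the presence of an interval near the gene and its fold enrichment rank, by cell state and H2A.Z isoform), so those values are a description and no p-value is given for a member.

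Flag ChIP-seq, in which DNA bound to a Flag-tagged protein is precipitated and sequenced, had been done in Caco-2/15, a line from a human colon cancer whose cells come to resemble enterocytes after confluence. Every cell population was heterozygous for a CRISPR-placed Flag tag, either in H2AFZ (the gene of H2A.Z.1) or in H2AFV (the gene of H2A.Z.2), so an untagged allele was also present in all groups. The 4 groups were H2A.Z.1 subconfluent, H2A.Z.2 subconfluent, H2A.Z.1 postconfluent and H2A.Z.2 postconfluent. Subconfluent cells had not reached confluence, postconfluent cells had been kept for 7 days after confluence, and each group had 2 experiments, Exp1 and Exp2. That gave 8 lists of peaks, called intervals below, with 1 list per sample. The labels call the samples duplicates and do not say whether they came from separate cultures, so any spread given here is the spread between these lists and may be technical. The labels do not say whether a tagged population was 1 clone, and no untagged Flag precipitation was used here.

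H2A.Z is a variant of histone H2A that cells place in nucleosomes beside active or poised promoters. MYC, MYCN and MYCL are proteins that bind DNA as partners of MAX, at the E-box CACGTG, and mostly activate genes of growth and ribosome synthesis. MXD1, MXI1, MXD3, MXD4 and MNT also pair with MAX at E-boxes but recruit SIN3 and histone deacetylases and repress. MLX is a MAX-like partner of the glucose-sensing factors MLXIP and MLXIPL. In the intestinal epithelium MYC is a known target of Wnt signalling in dividing crypt cells, and MXD proteins are known to accompany cell cycle exit.

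The promoter of MXD3 is shown because MXD3 was the member whose intervals differed most in presence between the states. Those of MXD4, MNT and MLX are shown because they hold the network's own E-box, and that of MYCN because it holds E2F-like letters. Each line gives the 250 bases before the annotated start, 5′ to 3′ on the gene's strand, from RefSeq (GRCh38.p14, the hg38 build of the lists). Capitals mark the E-box CACGTG or an E2F-like string (TTTCCCGC, TTTCGCGC, TTTGCCGC or TTTGGCGC, on either strand).
MXD3 (chr5:177312753-177313002, minus strand): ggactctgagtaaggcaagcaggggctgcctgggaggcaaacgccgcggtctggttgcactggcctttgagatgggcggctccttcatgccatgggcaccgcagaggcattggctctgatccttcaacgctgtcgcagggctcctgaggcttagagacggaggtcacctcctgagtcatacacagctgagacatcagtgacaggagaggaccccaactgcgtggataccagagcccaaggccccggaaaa
MXD4 (chr4:2262110-2262359, minus strand): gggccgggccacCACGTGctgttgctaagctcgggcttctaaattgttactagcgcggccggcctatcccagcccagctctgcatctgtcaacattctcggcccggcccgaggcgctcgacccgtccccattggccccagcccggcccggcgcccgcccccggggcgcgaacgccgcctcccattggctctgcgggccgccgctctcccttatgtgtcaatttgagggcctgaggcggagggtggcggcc
MNT (chr17:2401061-2401310, minus strand): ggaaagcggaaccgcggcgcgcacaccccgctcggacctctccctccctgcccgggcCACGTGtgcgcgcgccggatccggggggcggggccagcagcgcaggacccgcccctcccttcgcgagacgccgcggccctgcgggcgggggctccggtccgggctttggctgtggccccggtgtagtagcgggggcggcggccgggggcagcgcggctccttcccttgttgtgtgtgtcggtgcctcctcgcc
MLX (chr17:42566850-42567099, plus strand): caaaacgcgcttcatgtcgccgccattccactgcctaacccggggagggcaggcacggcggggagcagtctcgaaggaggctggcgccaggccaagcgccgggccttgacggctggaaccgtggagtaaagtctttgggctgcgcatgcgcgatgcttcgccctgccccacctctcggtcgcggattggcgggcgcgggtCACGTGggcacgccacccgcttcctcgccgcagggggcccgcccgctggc
MYCN (chr2:15940300-15940549, plus strand): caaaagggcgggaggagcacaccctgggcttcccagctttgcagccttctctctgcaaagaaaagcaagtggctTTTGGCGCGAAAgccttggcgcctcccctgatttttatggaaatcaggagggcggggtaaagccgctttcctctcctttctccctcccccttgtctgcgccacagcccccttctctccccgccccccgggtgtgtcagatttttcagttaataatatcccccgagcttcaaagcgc
RefSeq windows of 300 bases, 250 before and 50 after a start, were found for 9 of the 10 members (12 windows, since MAX has 2 starts and MXI1 has 3). The E-box was in 3 of these 12 windows, at 238 bp before the start of MXD4, 193 bp before that of MNT and 50 bp before that of MLX, against 8.34% of the 22199 windows of all genes. E2F-like letters were in 1 window, that of MYCN, where TTTGGCGC at 176 bp and GCGCGAAA at 172 bp before the start overlap, against 4.10% of all windows. TATAAA was in none of the 12, against 9.47% of all. MXD3's window held 12 CG dinucleotides, the fewest of the 12 windows, and 33.2% of all windows held fewer. MYCL's held 43, the most, and 93.6% of all windows held fewer.

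The strongest interval within 1 kb of either annotated end of a gene was taken in each list, and its fold enrichment, the authors' value, was given as a percentile among the 30603 intervals used per list. By this measure 9 of the 10 members had an interval in all 8 lists, the exception being MXD3, against 54.5% of all protein-coding genes. Ordered by the mean percentile over 8 lists, MXI1 stood highest at 84.5 ± 10.3 (SD, n = 8 for each), followed by MAX at 75.6 ± 7.19, MXD1 at 74.5 ± 8.53, MYCN at 74.2 ± 9.33 and MYCL at 70.4 ± 13.2. MYC followed at 63.5 ± 13.6, MLX at 56.4 ± 18.4, MNT at 47.0 ± 7.81 and MXD4 at 46.4 ± 20.3. Each step between neighbours in this order was smaller than the larger SD of the pair, while the step from MXI1 to MNT was larger than both SDs. The median over the 10919 genes with intervals in all 8 lists was 76.9, and only MXI1 of the 9 members stood above it. Another 4 lay between the lower quartile of these genes (63.7) and that median, and MYC, MLX, MNT and MXD4 lay under the lower quartile. The members thus stood mostly in the lower part of the ranks of occupied genes.

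**Figure D1:**
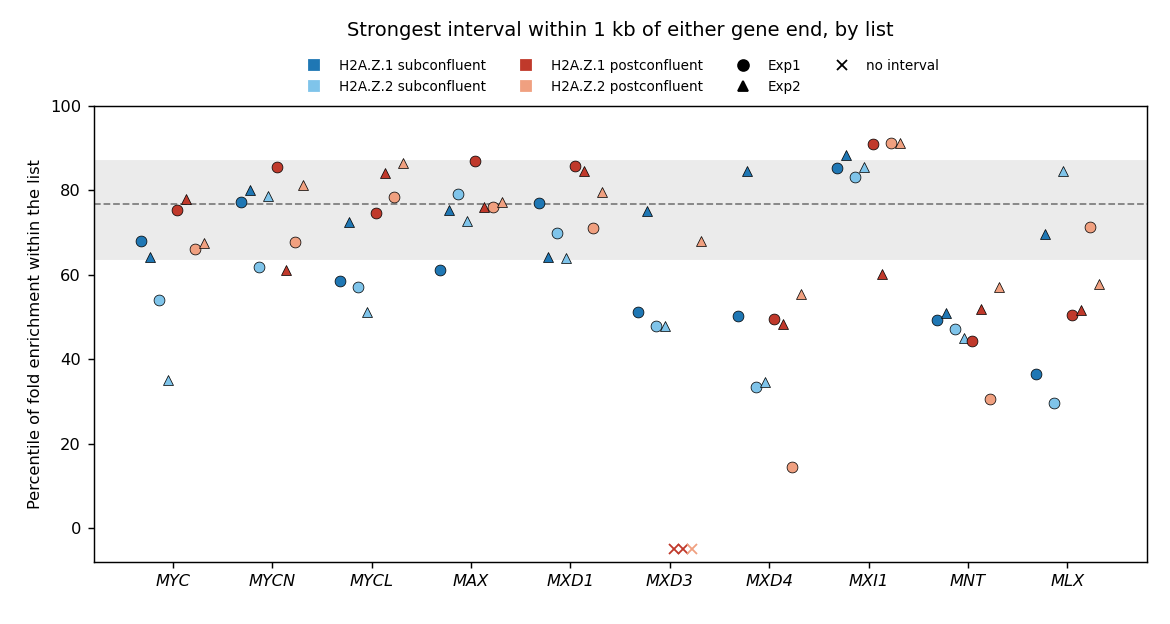
Percentile of fold enrichment of the strongest interval within 1 kb of either gene end (y axis) for the 10 members (x axis), 1 point per list, with color for isoform and state, circles for Exp1 and triangles for Exp2. Crosses under the zero line mark lists with no interval. The dashed line is the median (76.9) and the band the middle 50% (63.7 to 86.9) of the mean percentile over 8 lists, for all genes in 8 lists. Points are single-list values, not means. MXD3 has crosses in 3 postconfluent lists, and MXI1 has 7 and MYCN 5 of 8 points above the line.

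MXD3 encodes a repressor that pairs with MAX and is known from dividing cells. The gene lies on chromosome 5 from 177305499 to 177312752 on the minus strand. Its strongest interval stood at percentiles 51.3 and 75.05 in the H2A.Z.1 subconfluent lists (Exp1 and Exp2) and at 47.9 and 48.0 in the H2A.Z.2 subconfluent lists. In the postconfluent lists none was present for H2A.Z.1 in either experiment or for H2A.Z.2 in Exp1, and H2A.Z.2 Exp2 held one at 67.9. So all 4 subconfluent lists and 1 of 4 postconfluent lists had an interval, with a subconfluent mean of 55.5 ± 13.1 (SD, n = 4).

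The single postconfluent interval was not at the start of MXD3. It lay beyond the 3′ end of MXD3, whose 3′ part falls inside the annotated extent of PRELID1, a gene of mitochondrial lipid transfer. The interval itself lay within that extent and also came within 1 kb of RAB24. Its summit was 293 bp from the lower-coordinate end of PRELID1, and its edge came within 921 bp of the end of MXD3, just inside the 1 kb limit. In the other 7 lists the nearest interval of that cluster ended 1038 to 1238 bp away, just outside the limit. The PRELID1 cluster was in all 8 lists.

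At the annotated start of MXD3 alone, an interval was present in 4 of 4 subconfluent lists and 0 of 4 postconfluent lists. All 4 subconfluent lists and no postconfluent list was a pattern of 0.0568% of the 15843 genes with a known start, and of 0.0848% of the 20037 genes taken at either end. The member was chosen by this contrast, so nothing is read from the rarity. At chr5:177312014-177313102 in H2A.Z.1 Exp1, chr5:177312447-177313304 in H2A.Z.1 Exp2, chr5:177312415-177313125 in H2A.Z.2 Exp1 and chr5:177312411-177313039 in H2A.Z.2 Exp2, the subconfluent intervals covered the start base itself. The H2A.Z.2 Exp2 interval there was weak, at percentile 12.2, and the strongest within reach in that list lay downstream, with its summit 1028 bp into the gene. All 4 subconfluent lists thus had an interval across the start, 3 of them with that interval as the strongest.

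Before lists were cut to equal length, weak intervals were also listed near the start of MXD3 in 3 of the 4 postconfluent lists. Within 1 kb of the start, the deposited −log10 p was 24.4 and 41.8 in the H2A.Z.1 and 27.6 and 14.8 in the H2A.Z.2 subconfluent lists (Exp1 and Exp2). It was 12.9 and 15.1 in the H2A.Z.1 postconfluent lists and 8.90 in H2A.Z.2 Exp2, while H2A.Z.2 Exp1 listed none. The authors' fold enrichment was 7.54, 10.8, 6.68 and 5.82 in the 4 subconfluent lists in the same order, and 4.14, 5.61 and 4.04 in the 3 postconfluent lists. Neither measure is comparable between lists, which differ in length and carry no read depth. As percentiles of the whole lists the subconfluent values were 68.0, 88.5, 71.4 and 48.0, and the postconfluent ones 34.7, 58.5 and 26.3. The whole-list percentiles of the states overlapped, through H2A.Z.2 subconfluent Exp2 (48.0) and H2A.Z.1 postconfluent Exp2 (58.5). The difference in presence therefore stood on a threshold: the −log10 p of 15.1 in H2A.Z.1 postconfluent Exp2 fell under the weakest used interval of that list (16.8), while the 14.8 in H2A.Z.2 subconfluent Exp2 passed, as that shortest list was used whole down to 5.19. With the whole lists used, MXD3 was present in 4 subconfluent and 3 postconfluent lists, and with lists of 15301 intervals in 1 of each, the postconfluent one again at the PRELID1 side. It was present in 4 and 1 with lists of equal covered length or a −log10 q of at least 5, and in 4 and 0 where the summit had to lie in the window. With a 0.5 kb window it was present in 4 and 0, and with a 2 kb window, which takes in the PRELID1 cluster, in 4 and 4.

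**Figure D2:**
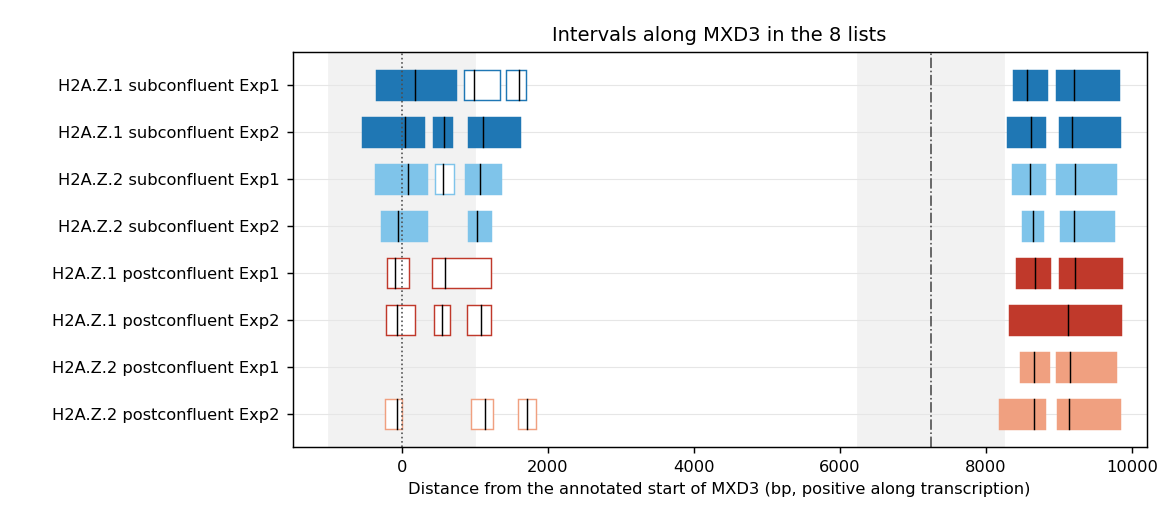
Intervals along MXD3 in the 8 lists (rows), by distance from its annotated start in bp along transcription (x axis). Filled boxes were used, open boxes are listed intervals left out when lists were cut to 30603, black ticks are summits, grey bands are the 1 kb windows, and the dotted and dash-dotted lines are the start and the other end; the start has filled boxes in the 4 subconfluent rows and open or no boxes in the postconfluent rows, while the PRELID1 cluster on the right is filled in all 8.

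The genes whose presence was most like that of MXD3 were few. The same presence in each of the 8 lists at either end was found at 10 other genes, with SLC26A5 (mean percentile 50.6) and AGFG2 (48.8) the strongest after MXD3 (58.0). The same presence at the start was found at 8 other genes, led by HCN4 (55.2) and DMRTA1 (42.6), against 55.5 for MXD3. These are matches of presence over 8 lists only.

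MYC, the activator that most colon cancers express at a high level through Wnt signalling, lies at 127735434 to 127742951 on chromosome 8. Its intervals were at the lower-coordinate end in all 8 lists and at the other end in none. In subconfluent cells MYC stood at percentiles 68.1 and 64.1 for H2A.Z.1 and 54.0 and 35.0 for H2A.Z.2 (Exp1 and Exp2). The postconfluent values of MYC were 75.5 and 77.9 with tagged H2A.Z.1 and 66.1 and 67.6 with tagged H2A.Z.2. The lowest value was that of H2A.Z.2 subconfluent Exp2, and the postconfluent mean was above the subconfluent mean by 9.74 percentile points in Exp1 and 23.2 in Exp2. The states overlapped nevertheless, since the H2A.Z.2 postconfluent values lay within the H2A.Z.1 subconfluent range. By isoform the mean was 71.4 ± 6.41 for H2A.Z.1 and 55.7 ± 15.1 for H2A.Z.2 (SD, n = 4 each), again with overlap. In all 8 lists the used intervals covered the base at that end of MYC. In 7 lists an interval there also lay within 1 kb of CASC11, a long noncoding RNA gene beside MYC, so the value cannot be given to one of the 2 genes alone.

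MYCN, which is best known from neuroblastoma, lies on chromosome 2 from 15940550 to 15947004 on the plus strand. Its percentiles were 77.3 and 80.04 (H2A.Z.1) and 61.8 and 78.6 (H2A.Z.2) in subconfluent cells, and 85.6 and 61.2 (H2A.Z.1) and 67.7 and 81.3 (H2A.Z.2) in postconfluent cells. The state means, 74.4 ± 8.50 and 73.9 ± 11.4 (SD, n = 4 each), differed by less than either SD. Its summits were all upstream of the start, by 253 to 888 bp, and used intervals covered the start base in 6 of 8 lists. The E2F-like letters of its promoter lie between the start and the nearest of those summits.

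MYCL, the third MYC gene and first known from lung cancer, lies on chromosome 1 from 39895428 to 39901917 on the minus strand. In subconfluent cells it stood at 58.6 and 72.5 for H2A.Z.1 and 57.1 and 51.1 for H2A.Z.2. The postconfluent values of MYCL were 74.7 and 84.3 with tagged H2A.Z.1 and 78.5 and 86.5 with tagged H2A.Z.2. MYCL was the only one of the 9 members whose 4 subconfluent and 4 postconfluent percentiles did not overlap, a pattern of 5.39% of the 10919 ranked genes, and the gap between 72.5 and 74.7 was narrow. The contrast took part in choosing the members, so nothing is read from that count. With whole lists the states of MYCL overlapped (51.1 to 87.4 against 83.1 to 93.9), and in lists of 15301 intervals it was present in 1 of 4 subconfluent and 4 of 4 postconfluent lists. Intervals flanked the start of MYCL on both sides and covered the start base in 0 of 8 lists. Taken by side, the upstream intervals stood at 44.0 to 72.5 in subconfluent and 67.6 to 86.5 in postconfluent cells, and the downstream ones at 42.3 to 57.1 and 53.8 to 84.3, so each side alone overlapped.

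MAX, a DNA-binding partner of the MYC and MXD proteins, lies on chromosome 14 from 65006101 to 65102695 on the minus strand. Its percentiles were 61.1 and 75.5 (H2A.Z.1) and 79.3 and 72.8 (H2A.Z.2) in subconfluent cells, and 86.9 and 76.0 (H2A.Z.1) and 76.0 and 77.3 (H2A.Z.2) in postconfluent cells. This was the smallest SD over 8 lists of any ranked member (7.19), with overlapping states. The end of the annotated gene itself was covered in 0 of 8 lists, whereas each of the 2 RefSeq starts that lie inside it was covered in 6 of 8. Near the start at 65102283 the strongest interval stood at 61.1 to 86.9, and near that at 65101684 at 12.4 to 55.9. The interval on the upstream side thus ranked above the downstream one in all 8 lists.

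MXD1, the first known MAX dimerization protein and a repressor that accompanies differentiation, lies on chromosome 2 from 69915109 to 69942945 on the plus strand. Subconfluent percentiles were 77.1 and 64.2 for H2A.Z.1 and 69.9 and 63.99 for H2A.Z.2, and postconfluent ones 85.7 and 84.5 for H2A.Z.1 and 71.0 and 79.6 for H2A.Z.2. The postconfluent mean was above the subconfluent mean by 4.85 percentile points in Exp1 and 17.99 in Exp2, and the states overlapped. Its strongest summits were all upstream, by 658 to 827 bp. A weaker interval over or just after the start was used in 4 lists, the H2A.Z.1 ones, and in the H2A.Z.2 lists it was listed but left out, or not listed. In 1 list an interval near MXD1 also came within 1 kb of LOC124906176, a small nucleolar RNA gene. That split follows the isoform in both experiments; in Exp1 the isoform cannot be told apart from the sequencing run (below).

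MXD4, another MAX-binding repressor, lies on chromosome 4 from 2247432 to 2262109 on the minus strand. It stood at 50.3 and 84.5 (H2A.Z.1) and 33.5 and 34.7 (H2A.Z.2) in subconfluent cells, and at 49.5 and 48.4 (H2A.Z.1) and 14.4 and 55.5 (H2A.Z.2) in postconfluent cells. These were the most spread of the members (SD 20.3), with the high value of H2A.Z.1 subconfluent Exp2 and the low one of H2A.Z.2 postconfluent Exp1 far from the rest. The mean was 58.2 ± 17.5 for H2A.Z.1 and 34.5 ± 16.8 for H2A.Z.2 (SD, n = 4 each), with overlap. All summits of the strongest intervals lay 706 to 794 bp before the start, the start base was covered in 0 of 8 lists, and the E-box at 238 bp lay between. With a 0.5 kb window MXD4 kept an interval in 3 of 8 lists.

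MXI1, a MAX-binding repressor also called MXD2, lies on chromosome 10 from 110207605 to 110287365 on the plus strand and has 3 RefSeq starts. It stood at 85.3 and 88.4 (H2A.Z.1) and 83.2 and 85.6 (H2A.Z.2) in subconfluent cells, and at 91.1 and 60.1 (H2A.Z.1) and 91.3 and 91.2 (H2A.Z.2) in postconfluent cells. The subconfluent values lay within 83.2 to 88.4, and 3 of 4 postconfluent values were above them, with H2A.Z.1 postconfluent Exp2 far below. In that list 1 merged interval covered the first 2 starts, where the other lists held 2 to 4 separate ones. In the 4 postconfluent lists the summit of the strongest interval lay 1153 to 2874 bp into the gene, beyond the 1 kb window that the interval reached. Where the summit had to lie in the window, MXI1 was present in 4 subconfluent lists (71.8 to 88.4) and 2 postconfluent lists (62.8 to 72.2). The higher postconfluent values thus depended on intervals reaching into the window. The bases of the first 2 starts were covered in 8 of 8 lists, and that of the third start, at 110225996, in 1 of 8. The third start was instead flanked by intervals on both sides in the lists, with the strongest within 1 kb at 63.99 to 88.5.

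**Figure D3:**
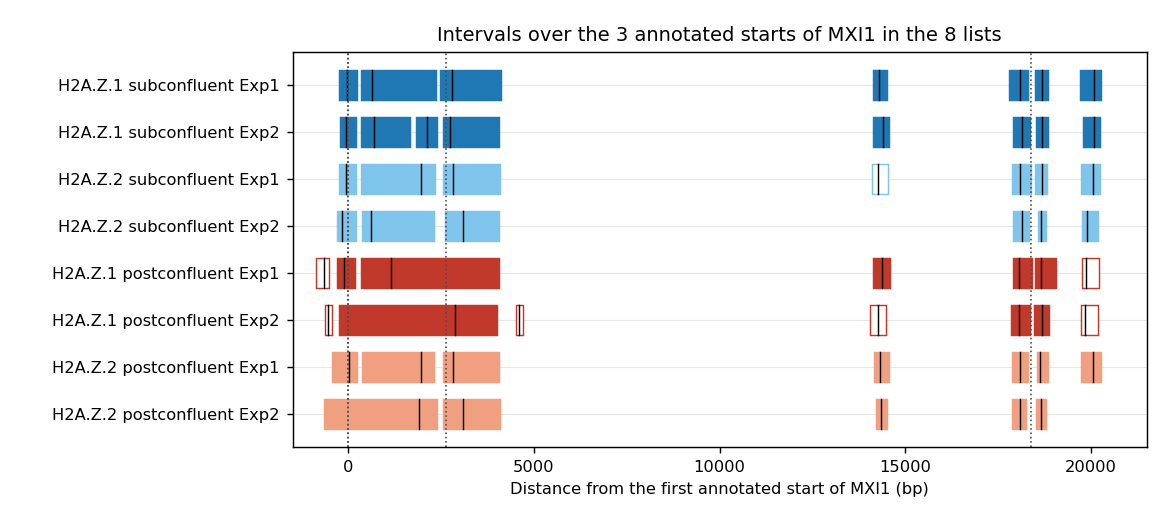
Intervals over the 5′ part of MXI1 in the 8 lists (rows), by distance from its first annotated start in bp (x axis), with dotted lines at the 3 RefSeq starts and black ticks at summits. Filled boxes were used and open boxes were left out when lists were cut to 30603; the first 2 starts lie inside filled boxes in all 8 rows, and the third lies between boxes in 7 of 8.

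MNT, a repressor with broad expression that opposes MYC, lies on chromosome 17 from 2384073 to 2401060 on the minus strand. It stood at 49.3 and 50.9 (H2A.Z.1) and 47.1 and 45.0 (H2A.Z.2) in subconfluent cells, and at 44.2 and 51.8 (H2A.Z.1) and 30.6 and 57.2 (H2A.Z.2) in postconfluent cells. The subconfluent SD was 2.58 and the postconfluent SD 11.5 (n = 4 each), with the subconfluent range inside the postconfluent one. In the 4 subconfluent lists the summit of the strongest interval lay 1084 to 1147 bp into the gene, beyond the 1 kb window. With the summit in the window, the values were 2.97 to 43.9 in subconfluent and 17.2 to 57.2 in postconfluent cells. With a 0.5 kb window they were 2.97 to 43.9 and 30.6 to 57.2, so the small subconfluent spread depended on the window rule. Every list had 4 to 9 used intervals in MNT or within 1 kb beyond its ends. The start base was covered in 3 of 8 lists, and the strongest summit was downstream of the start in 5 lists and upstream in 3. MLX lies on chromosome 17 from 42567100 to 42573203 on the plus strand. It stood at 36.4 and 69.6 (H2A.Z.1) and 29.6 and 84.6 (H2A.Z.2) in subconfluent cells, and at 50.4 and 51.8 (H2A.Z.1) and 71.2 and 57.9 (H2A.Z.2) in postconfluent cells. Its state difference had opposite signs in the 2 experiments, 27.8 percentile points higher in postconfluent cells in Exp1 and −22.3 in Exp2. In all 8 lists the interval at MLX also lay within 1 kb of COASY, an enzyme gene of coenzyme A synthesis whose annotated extent ends at 42566277, so its value belongs to both.

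**Figure D4:**
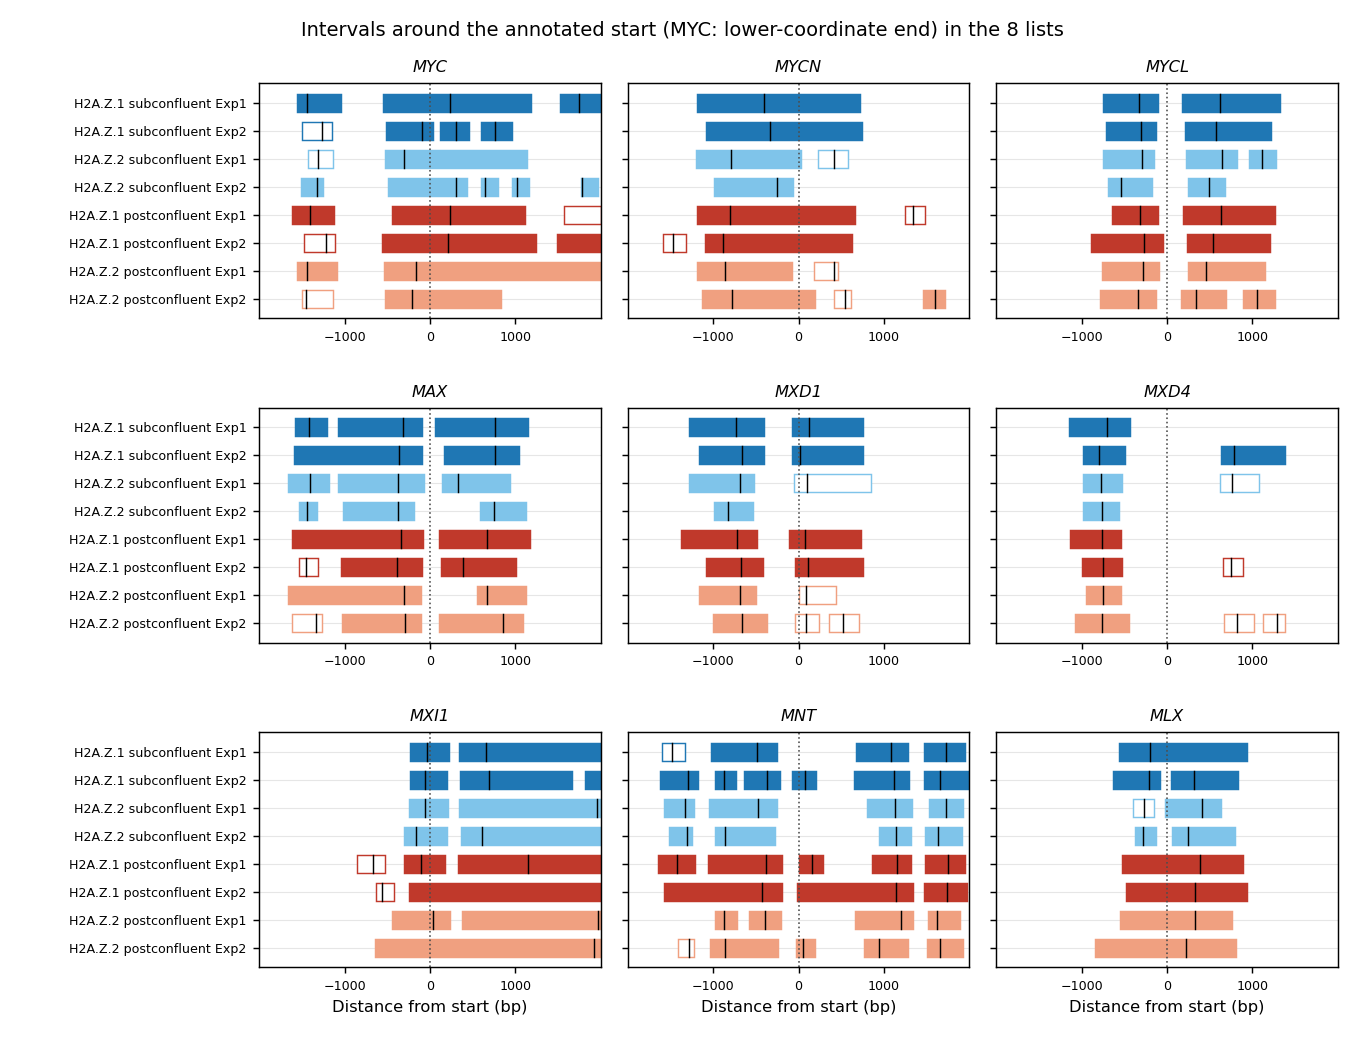
Intervals around the annotated start, or for MYC around the lower-coordinate end, of the 9 members other than MXD3 (panels), in the 8 lists (rows), by distance in bp (x axes, positive along transcription or, for MYC, along the chromosome). Filled boxes were used, open boxes were left out when lists were cut to 30603 and black ticks are summits; at MYCL and MXD4 no box crosses the dotted start line, and at MYC a filled box crosses it in all 8 rows.

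The place of intervals relative to the start thus varied within the network. The start base, taken as the outer end of the annotated gene, lay inside a used interval in 8 of 8 lists at MYC (lower-coordinate end) and MXI1. It did so in 6 at MYCN and MLX, 4 at MXD1 and MXD3, 3 at MNT and 0 at MYCL, MAX and MXD4. The 2 RefSeq starts of MAX lie inside that end, and each was covered in 6 of 8 lists. Among all starts with an interval within 1 kb, also taken at the outer end, 62.7% to 80.7% per list had the start base inside one.

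By state, ranks were compared as normal scores (a rank turned into units of standard deviations) with limma over the 10919 genes in all 8 lists. With Benjamini-Hochberg adjustment at 0.05, 6 genes (0.055%) were called between postconfluent and subconfluent cells, 5 higher and 1 lower, and 0 of the 9 ranked members were among them. At an unadjusted p under 0.05 there were 997 genes. Leaving out 1 list changed the count of called genes to between 0 and 12. The score difference, postconfluent minus subconfluent, was 0.90 (SE 0.35) for MYCL, 0.60 (SE 0.35) for MYC, 0.51 (SE 0.34) for MXD1 and 0.31 (SE 0.35) for MAX. MXD4 stood at −0.35 (SE 0.40), and the other 4 members lay between −0.06 and −0.01. In all, 4 members were above 0 and 5 below, with a median of −0.01, against 50.1% of all ranked genes below 0. The 4 members above 0 kept that sign in every alternative fit that ranked them, whereas MYCN, MXD4, MXI1, MNT and MLX took both signs. Of the 4, MAX moved most, from 0.13 without H2A.Z.1 subconfluent Exp1 to 0.59 when ranked by −log10 p.

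By isoform, 0 genes (0%) were called by limma, with 409 genes at an unadjusted p under 0.05. The score difference, H2A.Z.2 minus H2A.Z.1, was −0.74 (SE 0.40) for MXD4, −0.57 (SE 0.35) for MYC and 0.46 (SE 0.43) for MLX. Members were below 0 in 6 cases and above in 3, against a median of 0.00 over all ranked genes. In percentile points, H2A.Z.2 was lower than H2A.Z.1 by 26.0 in Exp1 and 21.4 in Exp2 for MXD4, and by 11.7 and 19.7 for MYC. For MXD4 the Exp2 difference came from subconfluent cells (84.5 for H2A.Z.1 and 34.7 for H2A.Z.2), since in postconfluent cells of Exp2 H2A.Z.2 was the higher (55.5 against 48.4). Leaving out H2A.Z.1 subconfluent Exp2 brought the MXD4 score difference to −0.33, leaving out H2A.Z.2 postconfluent Exp1 brought it to −0.47, and leaving out H2A.Z.1 subconfluent Exp1 brought it to −1.15. For MLX the value ran from −0.03 without H2A.Z.2 subconfluent Exp2 to 0.95 without H2A.Z.2 subconfluent Exp1, and was 0.10 and 0.81 without H2A.Z.1 subconfluent Exp1 and Exp2. Only MYC, MXD1 and MXD4 kept their sign by isoform in every alternative fit that ranked them. The percentiles of the 4 H2A.Z.1 and the 4 H2A.Z.2 lists did not overlap for 0 of the 9 members and for 2.12% of the ranked genes. By the run names inside the lists, H2A.Z.1 and H2A.Z.2 were sequenced on different runs in Exp1 and on 1 run in Exp2, so in Exp1 isoform and run cannot be told apart, while both states shared a run in each experiment.

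**Figure D5:**
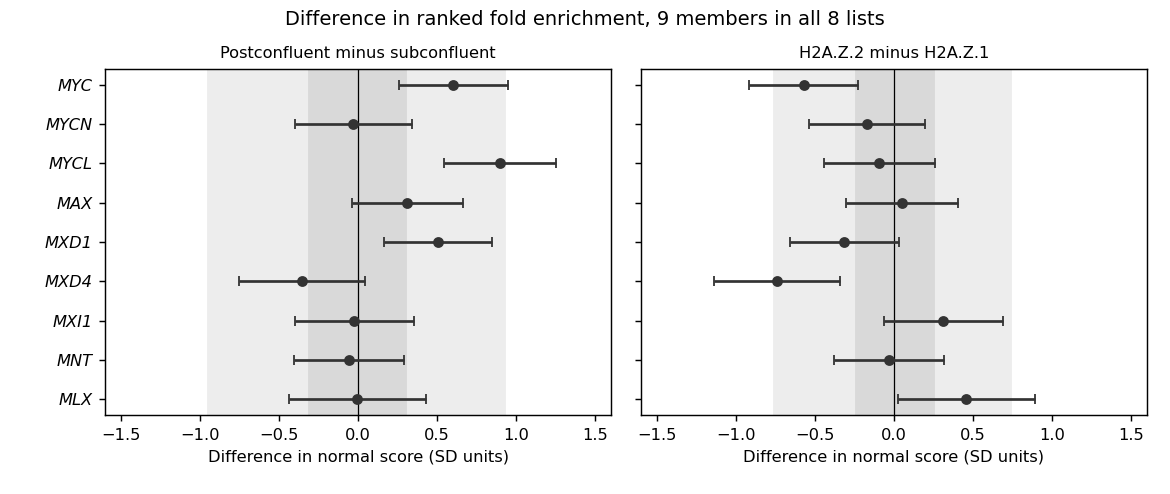
Difference in normal score (x axes, in SD units) for the 9 members with intervals in all 8 lists (rows), by state on the left and by isoform on the right; points are limma estimates and bars are 1 SE. The darker band holds the middle 50% of all ranked genes and the paler one the middle 95%; MYCL (0.90) lies farthest right by state and MXD4 (−0.74) farthest left by isoform, both inside the paler band.

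The other genes of the pathway were taken from 7 lists with 83 genes, all found in the annotation. An interval was present in all 8 lists at 72 of the 83 (86.7%, against the 54.5% of all genes) and in no list at 3, and at none of them in all 4 lists of one state or isoform and no list of the other. Of the 72 ranked genes, 0 were called by state or by isoform, and 47 stood above 0 by state, against 49.9% of all ranked genes. The extended network (MGA, MLXIP and MLXIPL) was present in all 8 lists at 3 of 3 genes, with a median state difference of 0.11. MGA, a scaffold that binds MAX and represses, stood highest at a mean percentile of 76.9, and MLXIPL, the glucose-responsive factor ChREBP, lowest at 66.9.

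Cofactors were present in all 8 lists at 17 of 20 genes, with a median state difference of 0.14. KAT5, the acetyltransferase of the complex that also deposits H2A.Z, stood at 98.7, and HDAC1, a deacetylase of the SIN3 complex, at 24.6 in the 2 lists that held an interval. All 10 genes of MYC turnover were present in all 8 lists (median 0.08). FBXW7, the ubiquitin ligase subunit that marks MYC for degradation, stood highest at 94.1, and GSK3B, a kinase, lowest at 71.7. Upstream Wnt and E2F genes were present at 9 of 11 (median 0.28), with APC, the tumor suppressor of the Wnt pathway, at 96.5 and TCF7L2, its main intestinal transcription factor, at 28.3 in 3 lists. HDAC1 and TCF7L2 were thus low where listed and had no interval in most lists.

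Other E-box factors were present in all 8 lists at 6 of 9 genes (median 0.21), with MITF at 91.8 and SREBF1, a regulator of lipid synthesis, at 26.9 in 7 lists. Genes known to be activated by MYC were present at 23 of 24 (median 0.25), from POLR1B, an RNA polymerase I subunit, at 93.9 to NOLC1, a nucleolar protein, at 27.5. Genes known to be repressed by MYC were present at 4 of 6 (median 0.55), with NDRG2 at 88.2 and CDKN1C, a cell cycle inhibitor, at 29.7. No list had a called gene, and the median state difference over all ranked genes was 0.00.

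The lists held 30603 to 79425 intervals, the shortest being H2A.Z.2 subconfluent Exp2. A peak list gives no read depth, so no counting error or detection floor can be stated, and a gene without an interval may hold signal under the authors' threshold. Protein-coding genes with no interval in any list numbered 6630. Of 8 epithelial marker genes, CDH1, CDX1 and CDX2 had intervals in all 8 lists and 0 had none; of the 5 blood, 5 fibroblast and 5 neuronal markers, 0, 1 and 1 had intervals in all 8 lists and 3, 3 and 2 in none. H2A.Z at a marker gene is no measure of its expression, so these counts do not check the cell type.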

How the data were processed

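Of the 17 samples in the labels, the 8 Flag precipitations were used (2 for each of 4 groups), and 9 samples were not analysed here. The submitters' processing notes name hg38, BWA and deepTools; for the peak caller, its control and any use of the spike-in, no source used here gives them. The deposited fold enrichment is a ratio (fold) made by the authors for each interval, relative to a background that no source used here names. The deposited −log10 p-values and −log10 q-values are also the authors'. Summit positions were taken from the final column. The fold, p and q values were used to rank or filter intervals within a list, and the summits to place them. At MXD3 the −log10 p and fold values are also printed as deposited, and they are comparable only within a list.

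To equal the shortest list, only the 30603 intervals with the largest −log10 p were kept per list. Fold enrichment was ranked within the list, and a gene took its strongest interval overlapping the 1 kb around either annotated end by at least 1 bp. Genes in all 8 lists were compared on normal scores of their ranks in R 4.3.3 with limma 3.58.1, using 4 group means and Benjamini-Hochberg adjustment at 0.05. The fit was run on simulated data with larger differences and less spread than the members had. Its power at differences such as theirs was not tested. Strands and promoter sequences came from RefSeq (GRCh38.p14), for 15843 of 20037 genes. Tables were made with Python 3.11.15, pandas 2.3.3 and numpy 2.4.6. Samples were grouped by the labels. The members and the gene lists were chosen with earlier results of these data known. Named were all members, the genes of highest and lowest mean percentile of each pathway list, genes sharing an interval with a member, and the genes of the same presence as MXD3 with the highest mean percentiles. Alternatives were list length, window, summit rule, start only, rank by −log10 p, a −log10 q of at least 5, the replicate block, and leaving out each list.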

Additional observations from a re-analysis of the deposited data

How the results depend on the processing

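The score differences of the 9 ranked members were called in 0 alternative fits. Of their 262 values under alternatives, 261 stayed within 1 SD (between lists of a group) of the reported value; the exception was MNT by state with a 0.5 kb window, at 0.65 against −0.06. The 9 members in all 8 lists became 4 (MYCN, MAX, MXD1 and MXI1) with lists of 15301 intervals and 4 with lists of equal covered length. The number became 7 with a 0.5 kb window, 8 by summit, 8 at the start only (where MYC had no known start) and 10 with a 2 kb window. It was 9 with each list left out, which shows no stability, since a gene in all 8 lists stays in all that remain. The count of genes called by limma by state, 6, became 13 with whole lists, 44 when ranked by −log10 p, and 0 at 15301 intervals per list and also at equal covered length. With 1 list left out it ran from 0 (without H2A.Z.1 postconfluent Exp2, H2A.Z.2 postconfluent Exp1 or H2A.Z.2 subconfluent Exp2) to 12 (without H2A.Z.1 postconfluent Exp1); where it was 0, 637 to 903 genes had an unadjusted p under 0.05. The experiment number as a replicate block gave 14 genes; the labels give the numbers no shared origin, all Exp2 lists were on 1 sequencing run and the Exp1 lists on 2, and the deviations of same-numbered lists correlated at −0.05 to 0.21 over 6 pairs of groups, so they were not taken as pairs. By isoform limma called 0 genes in all 16 alternative fits, with 262 to 599 at an unadjusted p under 0.05. Genes in all subconfluent and no postconfluent lists, 17, became 2 with whole lists, 31 with 15301 intervals, 42 with equal covered length and 9 at the start only (19 to 32 with 1 list left out). The reverse count, 21, became 7 with equal covered length (24 to 43 with 1 left out). Genes in all H2A.Z.1 and no H2A.Z.2 lists, 9, became 20 with whole lists and 2 with equal covered length (13 to 26 with 1 left out). For H2A.Z.2 only, 1 became 6 with 15301 intervals, 13 with equal covered length, 2 by summit, and 0 with whole lists, a 2 kb window, the start only or a −log10 q of at least 5 (1 to 4 with 1 left out). A list left out loosens these presence counts by construction; other causes were not tested. The lists differ in length and carry no read depth, so a gene near a list's weakest interval, such as MXD3, changes presence with the length used.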
